A study of Bos taurus with 6 samples.

Results

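The genes described here are 10 bovine genes of the NF-kB pathway, namely the 5 subunits NFKB1, NFKB2, RELA, RELB and REL, the inhibitors NFKBIA, NFKBIE and TNFAIP3, and the target genes BIRC3 and ICAM1. They were taken by name from the 23704 genes to which transcripts could be assigned, and all 10 were found and passed the filter on low counts. They were picked with the difference between the cultured and uncultured libraries already known, so that difference is given for them as a description and no test of it is read.

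RNA was sequenced from pools of primordial follicles (PMF), each an oocyte within flattened pre-granulosa cells, isolated mechanically from the ovarian cortex of young Holstein Friesian dairy cows from an abattoir. The groups were 3 pools retrieved after 16 h of culture (T16) and 3 pools retrieved after collection (T0), with no other agent or genotype named in the labels. By the study's methods isolated follicles passed a short recovery in warm medium with insulin, transferrin, selenium and FSH before they were stored, whereas the medium of the T16 culture is not given in the sources used here. Oocyte and somatic cells were not separated, so in these bulk pools fewer cells of a type cannot be told apart from less RNA per cell.

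NF-kB is a family of transcription factors that bind DNA as dimers of the subunits. RELA, RELB and REL carry the domain that activates transcription, while NFKB1 and NFKB2 are made as long precursors that are trimmed to a DNA-binding partner. In resting cells the dimers are held in the cytoplasm by inhibitors such as those encoded by NFKBIA and NFKBIE, until signals from receptors of the TNF, interleukin and Toll-like families lead to the destruction of the inhibitor. Several of the genes switched on by NF-kB encode its own subunits and inhibitors, which gives the pathway its feedback. In the ovary it is best known from the survival of granulosa cells and from the inflammation-like events of ovulation.

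The total of estimated counts was between 25761986 and 36703016 in the T16 libraries and between 22174653 and 30212698 in the T0 libraries, and the 10 genes had from 31 to 25697 counts in a library. All 10 oocyte markers, GDF9 and BMP15 among them, and all 9 granulosa markers, FOXL2 among them, were above 0 in every library. Their summed levels varied widely within both groups. The oocyte markers summed to between 74.3 and 1594 TPM at T16 and between 402 and 2421 TPM at T0, and the granulosa markers to between 886 and 9087 TPM at T16 and between 1345 and 9630 TPM at T0. Some granulosa markers separated the groups in TPM. The granulosa transcription factor FOXL2 had 3.37, 20.1 and 15.1 TPM in T16 replicates 1, 2 and 3, against 38.5, 141 and 37.3 TPM in T0 replicates 1, 2 and 3, and the ligand WNT6 had 0.0547, 15.1 and 1.54 TPM in the T16 replicates, against 39.0, 155 and 74.6 TPM in the T0 replicates. FST, which encodes the activin-binding protein follistatin, ran the other way, with 259, 513 and 288 TPM in the T16 replicates, against 89.6, 90.0 and 24.5 TPM in the T0 replicates. These markers thus moved with the same contrast as the NF-kB genes, and their part in the NF-kB values was not tested. T16 replicate 2 and T0 replicate 1 held the least oocyte RNA of their groups by the summed markers. In T16 replicate 2 several oocyte markers were barely detected, with GDF9 at 1.34, BMP15 at 0.533 and DPPA3 at 0.0574 TPM. The largest part of its sum was KIT, with 39.5 TPM. Unlike the sum, KIT was highest of its group in T16 replicate 2 and in T0 replicate 1, with 59.3 TPM in the latter. TPM, the number of transcripts of a gene relative to all transcripts of the library, is a level corrected for transcript length, so it allows genes to be compared with each other.

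All 5 subunits had a higher mean level at T16, and for 4 of them every T16 library lay above every T0 library. NFKB2, the precursor that partners mainly RELB, had 143, 96.7 and 81.2 TPM in T16 replicates 1, 2 and 3, against 42.0, 34.6 and 27.8 TPM in T0 replicates 1, 2 and 3. The lowest T16 library was thus well above the highest T0 library, and the log2 fold change was 1.69 (SE 0.35). NFKB1, the precursor that partners mainly RELA, had 111, 85.5 and 58.8 TPM in the T16 replicates, against 32.3, 19.1 and 28.6 TPM in the T0 replicates. Its groups did not overlap either, and its log2 fold change was 1.73 (SE 0.37).

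RELA, the activating subunit of the classical dimer, showed the smallest difference of the 5. It had 90.3, 71.0 and 50.7 TPM in the T16 replicates, against 44.0, 40.2 and 28.8 TPM in the T0 replicates. The T16 libraries were above the T0 libraries by a narrow margin, with a log2 fold change of 0.97 (SE 0.34). RELB, the activating subunit of the alternative dimer with NFKB2, differed most. It had 62.1, 40.0 and 61.8 TPM in the T16 replicates, against 12.3, 6.59 and 10.7 TPM in the T0 replicates, a log2 fold change of 2.57 (SE 0.47) that ranged from 2.26 to 2.89 with 1 library left out.

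REL, best known from lymphocytes, was the least abundant subunit at both times and the most uneven. It had 21.2, 10.2 and 5.38 TPM in the T16 replicates, against 1.13, 4.11 and 8.08 TPM in the T0 replicates. T16 replicate 3 lay below T0 replicate 3, so the groups overlapped. The lowest value, in T0 replicate 1, rests on 31 counts. The log2 fold change of 1.59 (SE 0.83) increased to 2.24 if T0 replicate 3 was dropped and decreased to 0.87 if T16 replicate 1 was dropped.

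**Figure D1:**
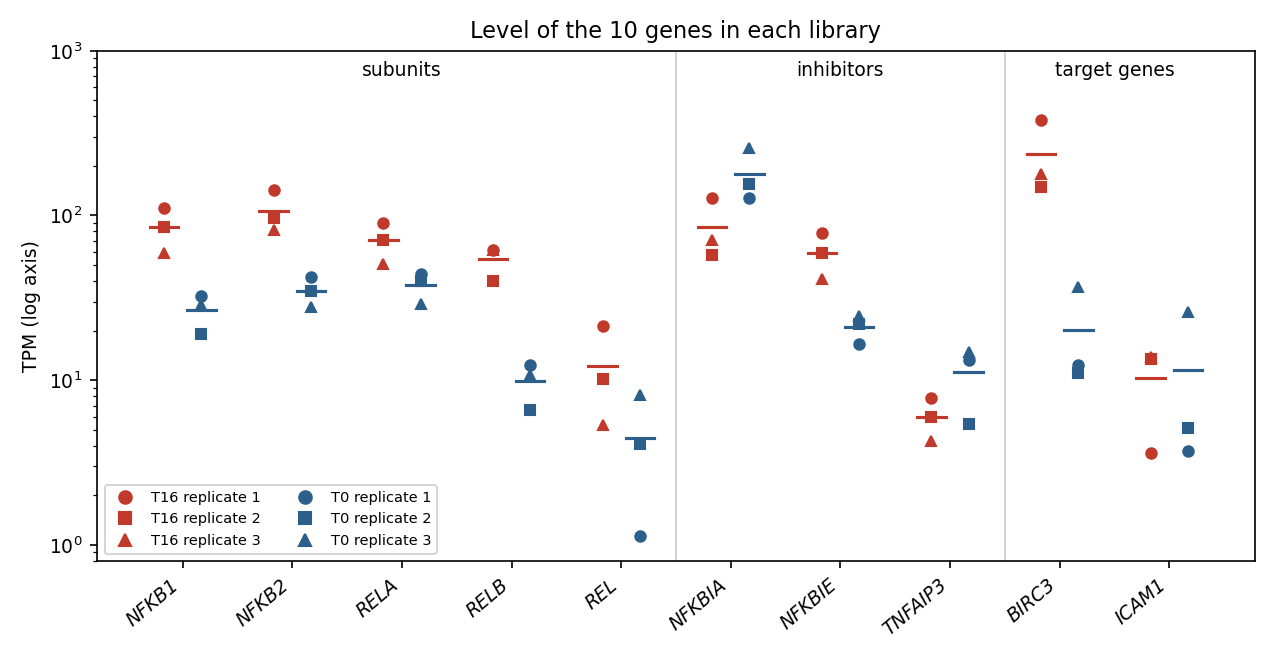
Level of each gene in TPM, on a log axis, with T16 libraries in red left of T0 libraries in blue; points are libraries, with a symbol for each replicate number, and short lines are means of 3. The groups are apart for NFKB1, NFKB2, RELA, RELB, NFKBIE and BIRC3 and overlap for REL, NFKBIA, TNFAIP3 and ICAM1.

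The make-up of the subunit transcripts differed between the groups mainly in RELA and RELB. These shares, and the ratio of RELB to RELA, restate the levels above, where RELB differed most and RELA least. They are thus a description and no separate result. The level of RELA itself was higher at T16. The 5 subunits together held 428, 303 and 258 TPM in the T16 replicates, against 132, 105 and 104 TPM in the T0 replicates. RELA made up 21.4% of this sum at T16 (SD 1.89, n = 3) and 33.2% at T0 (SD 5.38, n = 3). RELB made up 17.2% at T16 (SD 5.87, n = 3) and 8.65% at T0 (SD 2.09, n = 3), with its highest share, 24.0%, in T16 replicate 3. For both genes the lowest or highest T16 library did not reach into the range of T0, with RELA at most 23.4% at T16 against at least 27.7% at T0, and RELB at least 13.2% at T16 against at most 10.3% at T0.

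The ratio of RELB to RELA within a library was 0.688, 0.563 and 1.22 in the T16 replicates, against 0.280, 0.164 and 0.372 in the T0 replicates. RELB thus exceeded RELA in 1 library only, T16 replicate 3. The shares of the other subunits overlapped between the groups. NFKB2 was 32.3% at T16 (SD 1.07, n = 3) and 30.6% at T0 (SD 3.36, n = 3), and NFKB1 was 25.6% at T16 (SD 2.69, n = 3) and 23.4% at T0 (SD 4.69, n = 3).

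**Figure D2:**
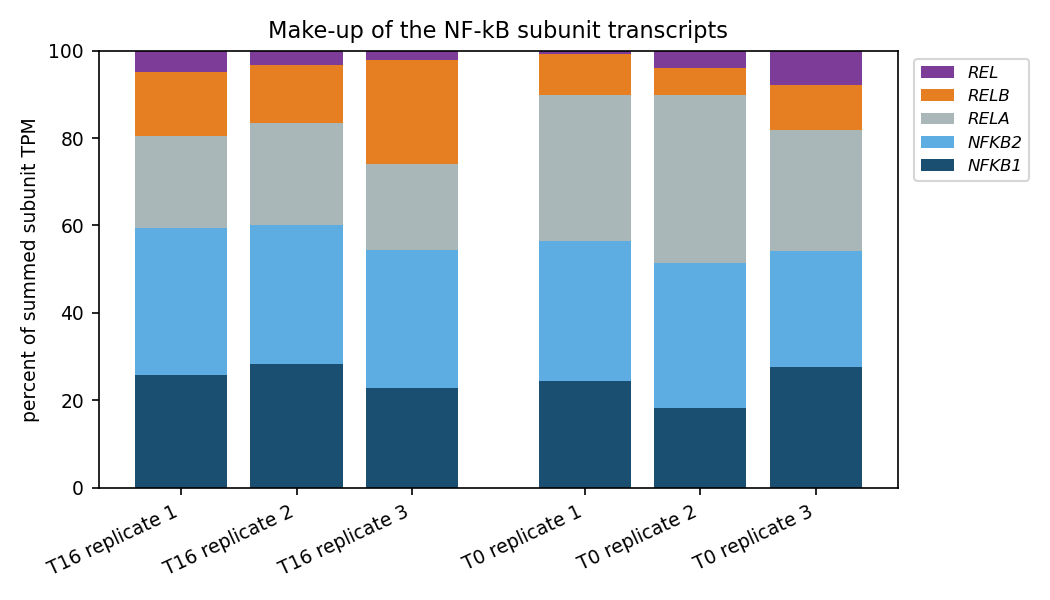
Share of each NF-kB subunit in the summed TPM of the 5 subunits, in percent, for the 3 T16 libraries at the left and the 3 T0 libraries at the right; each bar is a library. RELA is between 19.7% and 23.4% at T16 and between 27.7% and 38.4% at T0. RELB is between 13.2% and 24.0% at T16 and between 6.30% and 10.3% at T0. The shares restate the levels of the same genes.

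The 3 inhibitors did not move together. NFKBIE, which encodes the epsilon inhibitor that holds RELA and REL dimers, was higher at T16, with 78.0, 59.0 and 41.2 TPM in the T16 replicates, against 16.5, 21.8 and 24.6 TPM in the T0 replicates. Its groups did not overlap, and its log2 fold change was 1.60 (SE 0.34). NFKBIA, which encodes the alpha inhibitor and is among the fastest NF-kB feedback genes, had the lower mean at T16. It had 128, 57.2 and 71.4 TPM in the T16 replicates, against 127, 155 and 256 TPM in the T0 replicates, a log2 fold change of -0.95 (SE 0.39). T16 replicate 1 and T0 replicate 1 were nearly equal. On the TPM scale the groups met there, and in CPM, counts relative to the size of the library, after TMM scaling, with 128 CPM in T16 replicate 1 and 147 CPM in T0 replicate 1, they did not.

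TNFAIP3 encodes a ubiquitin-editing enzyme that stops signals upstream of the inhibitors. It had 7.78, 5.94 and 4.29 TPM in the T16 replicates, against 13.3, 5.40 and 14.9 TPM in the T0 replicates. T0 replicate 2 lay among the T16 libraries, and the log2 fold change was -0.81 (SE 0.53). Dropping T0 replicate 2 gave -1.25, and dropping T0 replicate 1 gave -0.56.

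Set against the subunits of the same library, NFKBIA and TNFAIP3 transcripts were scarcer at T16, and NFKBIE transcripts were not. The subunits were picked with their higher level at T16 known, so any gene that did not rise with them has a lower ratio. In TPM itself NFKBIA and TNFAIP3 overlapped between the groups. For each 100 TPM of subunits there were 30.0, 18.9 and 27.7 TPM of NFKBIA in the T16 replicates, against 96.7, 148 and 246 TPM in the T0 replicates. TNFAIP3 had 1.82, 1.96 and 1.66 TPM per 100 TPM of subunits in the T16 replicates, against 10.1, 5.16 and 14.3 TPM in the T0 replicates. NFKBIE averaged 17.9 TPM per 100 TPM of subunits at T16 (SD 1.76, n = 3) and 19.0 TPM at T0 (SD 5.77, n = 3), with overlapping groups. The ratio of NFKBIA to NFKBIE averaged 1.45 at T16 (SD 0.417, n = 3) and 8.41 at T0 (SD 1.75, n = 3).

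**Figure D3:**
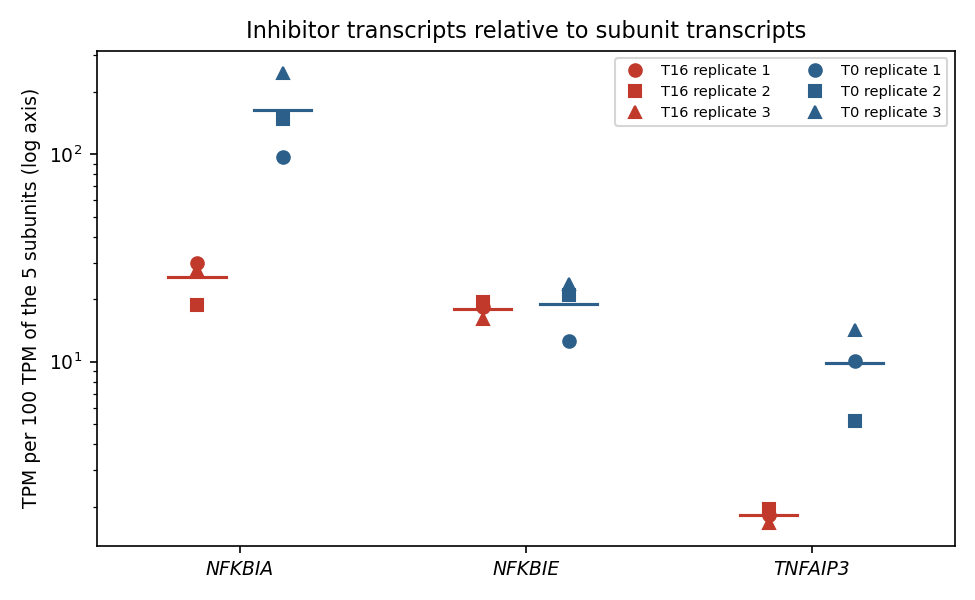
TPM of 3 inhibitors for each 100 TPM of the 5 subunits in the same library, on a log axis; T16 libraries are red and left of the blue T0 libraries, points are libraries and short lines are means of 3. NFKBIA and TNFAIP3 are lower in all T16 libraries than in any T0 library, and NFKBIE overlaps. The summed subunit TPM, by which all are divided, was itself higher in every T16 library.

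Of the target genes, BIRC3 showed the largest difference of all 10 and ICAM1 showed none that held across libraries. BIRC3, a ubiquitin ligase that protects cells from TNF-induced death, had 380, 149 and 177 TPM in the T16 replicates, against 12.4, 11.02 and 36.9 TPM in the T0 replicates. Every T16 library was far above the highest T0 library, T0 replicate 3. The log2 fold change was 3.64 (SE 0.66), with a range of 3.06 to 4.44 when a library was left out (T16 replicate 1 for the lowest, T0 replicate 3 for the highest). BIRC2, its closest relative, was also higher at T16, and BIRC3 exceeded BIRC2 in every T16 library, by a ratio of 2.61 on average (SD 0.407, n = 3), against 0.825 at T0 (SD 0.252, n = 3). In T0 replicate 3 BIRC3 exceeded BIRC2 as well, by a ratio of 1.08. Reads shared by these related genes were divided by estimation, so the split between them is less certain than either sum.

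ICAM1, an adhesion molecule to which leukocytes bind, had 3.63, 13.4 and 13.9 TPM in the T16 replicates, against 3.70, 5.11 and 25.8 TPM in the T0 replicates. T0 replicate 3 was the highest of the 6 libraries and T16 replicate 1 the lowest, and the groups overlapped. Its log2 fold change of 0.07 (SE 0.86) became 1.32 when T0 replicate 3 was dropped, -0.47 when T0 replicate 2 was dropped and -0.05 under DESeq2 size factors, so no direction can be given.

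**Figure D4:**
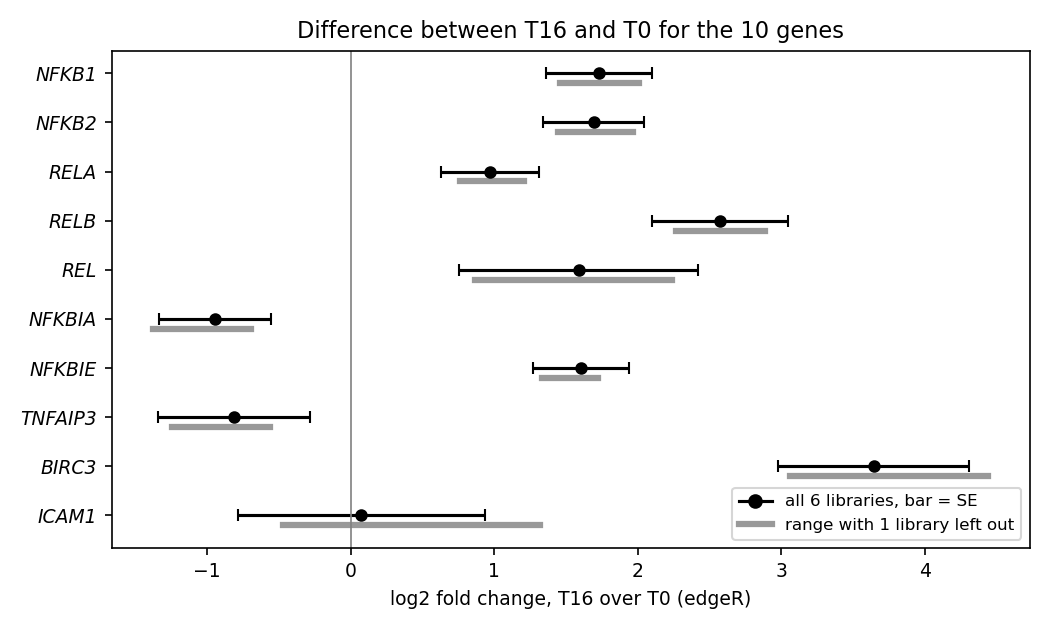
Log2 fold change, T16 over T0, of each gene from the edgeR fit over all genes; black points are the fit to all 6 libraries with the SE as a bar, and grey lines are the range with 1 library left out. BIRC3 is highest at 3.64 and RELB next at 2.57, NFKBIA and TNFAIP3 are below 0 throughout, and the range of ICAM1 spans 0.

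Across all genes, edgeR called 0.0410% at a false discovery rate (FDR) below 0.05, and 0 of the 10 genes were among them. At an unadjusted p below 0.05, edgeR gave 7 of the 10, where 13.8% of all genes tested passed. DESeq2 called 5 of the 10 higher, NFKB1, NFKB2, RELB, NFKBIE and BIRC3, where it called 4.17% of the genes with an adjusted p higher. In CPM, every T16 library lay above every T0 library in 6 of the 10, against 13.2% of all genes, and below in 1, NFKBIA, against 10.6%. The log2 fold change was positive in 8 of the 10 and in 46.6% of all genes. Since the genes were picked on this contrast, these shares describe the choice. Without T16 replicate 2 and T0 replicate 1, where oocyte RNA was scarcest, the same 6 genes lay above and NFKBIA below, beside 25.3% and 27.3% of all genes. Leaving out T0 replicate 3 alone put REL above as well, which made 7 of the 10 beside 16.0% of all genes.

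The order of the levels differed between the groups at its top. At T16, BIRC3 led the 10 with a mean of 236 TPM (SD 126, n = 3), above NFKB2 with 107 TPM (SD 32.3, n = 3) in every library and without overlap. NFKBIA, NFKB1, RELA, NFKBIE and RELB followed, with means between 85.6 and 54.6 TPM, and each neighbour in this order overlapped the next. REL, ICAM1 and TNFAIP3 were at the bottom, with 12.3, 10.3 and 6.004 TPM, and overlapped each other, while RELB lay above REL in all libraries. At T0, NFKBIA led with 179 TPM (SD 67.4, n = 3), clear of RELA with 37.7 TPM (SD 7.92, n = 3). Below it every neighbour in the order overlapped the next, down to RELB with 9.87 TPM (SD 2.96, n = 3) and REL with 4.44 TPM (SD 3.49, n = 3).

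Within the groups, 9 of the 10 genes peaked in replicate 1 of T16 in TPM, ICAM1 being the exception. In CPM this was so for 8 of the 10, against 37.7% of all genes tested, since RELB then peaked in T16 replicate 3 with 89.3 CPM, against 70.7 CPM in T16 replicate 1. At T0, 6 of the 10 peaked in replicate 3 in TPM and 5 in CPM, NFKBIA, NFKBIE, BIRC3, ICAM1 and REL on both scales, against 32.2% of all genes tested in CPM. The same library was the lowest of T0 for NFKB2 and RELA. The sixth, TNFAIP3, was highest in T0 replicate 1 once libraries were scaled by TMM, with 44.0 CPM there and 41.6 CPM in T0 replicate 3. The widest spread within T0 was in REL and ICAM1, whose highest library was 7.15 and 6.97 times the lowest, and the narrowest was in NFKBIE, at 1.49 times.

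The 10 genes were measured through 18 RefSeq transcripts. NFKB1, RELA, RELB, REL, NFKBIA, NFKBIE and ICAM1 each had 1. NFKB2 was carried by its curated transcript of 3244 bases, with 87.0% of its TPM at T16 (SD 2.09, n = 3) and 89.1% at T0 (SD 1.89, n = 3). For TNFAIP3 nearly all signal fell on a predicted transcript of 4624 bases, with 96.4% at T16 and 92.4% at T0.

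BIRC3 was spread over 5 transcripts, and their shares were more alike among T16 libraries than among T0 libraries. The T0 shares rest on fewer counts, 793, 770 and 2361 in the T0 replicates, against 25697, 8853 and 17087 in the T16 replicates. These counts were divided among the transcripts by estimation, and their part in the uneven shares was not tested. The curated transcript of 2647 bases held 33.2% of the TPM of BIRC3 at T16 (SD 4.54, n = 3) and 37.6% at T0 (SD 18.1, n = 3). A predicted transcript of 5088 bases held 2.91% at T16 (SD 0.447, n = 3) and 14.4% at T0 (SD 5.42, n = 3), without overlap. Its level was nonetheless higher at T16, with a mean of 6.52 TPM against 2.48 TPM at T0.

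Other parts of the pathway were described through 4 lists with 83 genes, given as counts and medians. These lists too were chosen with earlier results of these data known. Their calls, p-values and medians are therefore a description and no independent support. Of the ligands, TNF and CD40LG had 0 counts in all 6 libraries. This allows at most 0.0906 to 0.151 CPM per library, here without TMM scaling, for counting error only. The interleukin ligand IL1A had 4.32, 1.81 and 1.70 TPM in the T16 replicates, against 0.948, 0.889 and 0.795 TPM in the T0 replicates. Of 12 ligand and receptor genes tested, edgeR called 0 (2 higher at an unadjusted p below 0.05) and DESeq2 called 2 higher, CD40 and TNFRSF12A, both receptors of the TNF family. Over all genes tested, 13.8% passed at that unadjusted p in either direction, and DESeq2 called 4.17% of the genes with an adjusted p higher. CD40 had 16.6, 15.4 and 19.6 TPM in the T16 replicates, against 1.46, 0.713 and 2.11 TPM in the T0 replicates. TNFRSF12A had 2710, 1302 and 3042 TPM in the T16 replicates, against 431, 137 and 251 TPM in the T0 replicates. In both, T16 was above T0 in every library. TLR3, a receptor for double-stranded RNA, had 0.198, 0.958 and 0.556 TPM in the T16 replicates, against 3.46, 1.48 and 1.13 TPM in the T0 replicates. The median log2 fold change of the list was 0.79, beside -0.08 over all genes tested.

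Of 23 tested adaptors and kinases, which carry the signal from receptors to the inhibitors, edgeR called 0 (8 higher at an unadjusted p below 0.05) and DESeq2 called 2 higher, BIRC2 and RIPK1. Of all genes tested, 13.8% passed at that unadjusted p in either direction, and DESeq2 called 4.17% of the genes with an adjusted p higher. In 8 adaptors and kinases every T16 library was above every T0 library, beside 13.2% of all genes, and in 0 below, beside 10.6%. BIRC2 had 144, 68.0 and 59.0 TPM in the T16 replicates, against 15.3, 19.0 and 34.0 TPM in the T0 replicates. RIPK1, the kinase that joins the TNF receptor to the pathway, had 165, 79.7 and 95.7 TPM in the T16 replicates, against 45.6, 31.1 and 36.7 TPM in the T0 replicates. CHUK, a kinase that marks NFKB2 for trimming, had 74.3, 50.8 and 29.2 TPM in the T16 replicates, against 24.8, 21.2 and 16.6 TPM in the T0 replicates, without overlap. The median of the list was 0.48, and it was 0.85 if T0 replicate 1 was dropped, 0.31 if T0 replicate 3 was dropped and 0.32 if T16 replicate 2 was dropped.

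Of the 14 other inhibitors, edgeR and DESeq2 both called 0. At an unadjusted p below 0.05 edgeR gave 1, NFKBIB, beside 13.8% of all genes tested in either direction. NFKBIB, the beta inhibitor, had 69.9, 71.6 and 99.7 TPM in the T16 replicates, against 44.9, 31.3 and 37.0 TPM in the T0 replicates, without overlap. TNIP3, a partner of the TNFAIP3 protein, had 3.84, 5.36 and 2.62 TPM in the T16 replicates, against 1.08, 1.23 and 0 TPM in the T0 replicates. The median of the list was 0.15, and it was 0.35 if T0 replicate 1 was dropped, 0.25 if T16 replicate 1 was dropped, 0.24 if T0 replicate 3 was dropped and 0.0449 if T0 replicate 2 was dropped.

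Of 16 other target genes tested, edgeR called 1 higher, the neutrophil chemokine CXCL5, and 0 lower. At an unadjusted p below 0.05 it gave 5 higher and 1 lower, beside 13.8% of all genes tested in either direction. DESeq2 called 3 higher, CXCL5, CXCL2 and CD83, and 1 lower, TNFAIP2. Of the genes with an adjusted p it called 4.17% higher and 3.04% lower. CXCL5 had 171, 240 and 157 TPM in the T16 replicates, against 0.2297, 0.684 and 1.22 TPM in the T0 replicates (log2 fold change 8.21, SE 0.64, edgeR adjusted p = 0.0215). With 1 library left out its adjusted p by edgeR ranged between 0.0401 (T0 replicate 1 dropped) and 0.273 (T16 replicate 3 dropped) and was below 0.05 in the T0 replicate 1 case alone, and with the replicate number as a block it was 0.323. The chemokine CXCL2 had 42.5, 88.9 and 116 TPM in the T16 replicates, against 0, 0 and 1.23 TPM in the T0 replicates, and CXCL8 had 78.0, 131 and 83.8 TPM in the T16 replicates, against 0, 0 and 6.25 TPM in the T0 replicates. For CXCL2 and CXCL8 a count of 0 allows up to 0.122 CPM in T0 replicate 1 and 0.111 CPM in T0 replicate 2. These limits are in CPM without TMM scaling. All T0 counts of CXCL2 and CXCL8 came from replicate 3. TNFAIP2 had 0.408, 2.28 and 0.768 TPM in the T16 replicates, against 9.94, 14.0 and 9.82 TPM in the T0 replicates. CFLAR, which blocks caspase activation, had 23.8, 24.5 and 22.8 TPM in the T16 replicates, against 24.0, 37.6 and 27.6 TPM in the T0 replicates (log2 fold change -0.29, SE 0.28), which overlap in TPM and not in CPM. The median of the list was 0.69, and it was 0.39 if T0 replicate 2 was dropped and 1.14 if T0 replicate 3 was dropped.

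**Figure D5:**
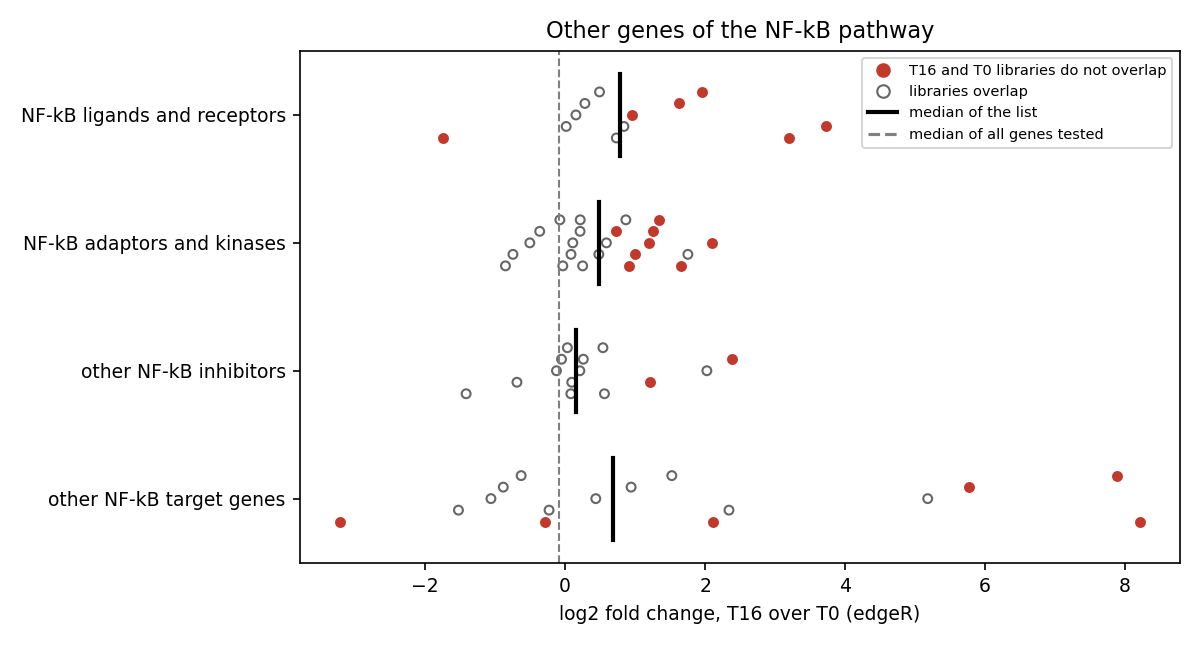
Log2 fold change, T16 over T0, of the tested genes of 4 lists; red points are genes whose T16 and T0 libraries do not overlap in CPM, open points are those that overlap, black lines are the medians of the lists (0.79, 0.48, 0.15 and 0.69 from top to bottom) and the dashed line is the median of all genes tested, -0.08. The vertical spread within a list only separates the points.

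Markers of immune cells, in which NF-kB is best studied, were mostly low, but the macrophage marker CD68 differed between the groups. Of 11 macrophage and leukocyte markers, 4 were above 1 TPM in any library, C1QA and CD163 had 0 TPM in all, and the leukocyte antigen PTPRC was at most 0.935 TPM at T16 and 0.463 TPM at T0. The sum of the list was between 3.49 and 53.9 TPM at T16 and between 9.77 and 46.5 TPM at T0. Outside T16 replicate 2 most of it was CSF1R, with 37.8, 0.0736 and 6.89 TPM in the T16 replicates, against 8.31, 40.3 and 42.4 TPM in the T0 replicates. CSF1R was lowest of each group in the library with the least oocyte RNA, T16 replicate 2 and T0 replicate 1, and this was not tested. CD68, a lysosomal protein, had 14.2, 1.00 and 5.51 TPM in the T16 replicates, against 0, 0 and 0.838 TPM in the T0 replicates, so that each T16 library was above each T0 library. The T cell list summed to between 0 and 1.49 TPM at T16 and between 2.64 and 4.86 TPM at T0, without overlap, with CD2 at 0 in all libraries. Most of the T0 sum was CD3G, with 0 TPM in each T16 library, against 2.55, 3.67 and 3.94 TPM in the T0 replicates. CD3E went the other way, with its highest level, 1.38 TPM, in T16 replicate 2, and CD3D was at most 0.422 TPM in any library. Of 8 endothelial markers, PECAM1 was at most 0.843 TPM at T16 and 6.57 TPM at T0, and the sum was between 16.3 and 39.1 TPM at T16 and between 23.5 and 393 TPM at T0, where CLDN5 reached 382 TPM.

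Of the other lists, the 8 smooth muscle and pericyte markers summed to between 31.9 and 113 TPM at T16 and between 115 and 447 TPM at T0, so that these groups did not overlap. The 7 stroma markers summed to between 272 and 1656 TPM at T16 and between 1063 and 2443 TPM at T0, the 5 theca markers to between 43.3 and 848 TPM at T16 and between 519 and 2649 TPM at T0, and the 4 surface epithelium markers to between 34.3 and 240.0 TPM at T16 and between 70.0 and 219 TPM at T0. The part of these differences, and of that in CD68, in the NF-kB values was not tested.

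The genes whose pattern over the 6 libraries was most like the mean pattern of the 10 were KANSL2, RBM7, TFG, KPNA3, FAM241A, UAP1, PTGES3, TRMT13, HSPH1 and NEPRO, with Pearson correlations between 0.998 and 0.986. The mean pattern was highest in T16 replicate 1 and lowest in T0 replicate 2, with T0 replicate 3 the highest of T0. Of the 10207 genes ranked, 100 had a correlation of at least 0.95, and all values come from the same 6 libraries, so this is a description. KANSL2 had 76.8, 61.7 and 54.8 TPM in the T16 replicates, against 36.6, 34.8 and 47.4 TPM in the T0 replicates. Of the 10 genes themselves, each of which is part of the mean, BIRC3 followed the mean pattern most closely, with a correlation of 0.962. NFKBIA, with -0.347, TNFAIP3, with -0.177, and ICAM1, with 0.132, followed it least.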

How the data were processed

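The authors trimmed reads with Trim Galore and fastp and quantified them against the RefSeq transcriptome of ARS-UCD1.3 with Salmon. Each deposited file gives, for a library, the estimated counts of each transcript, TPM, and other values of length. Transcripts were named by accession in a RefSeq table (ARS-UCD2.0, so coordinates are not given). Of these, 50205 of 76123 matched, and the remaining 9.74% to 10.9% of counts were left out, so a gene's sum may lack some transcripts. Counts and TPM were summed to 23704 genes, and counts were rounded to whole numbers.

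The contrast of T16 over T0 was fitted in edgeR 4.0.16 under R 4.3.3 (TMM, quasi-likelihood test, Benjamini-Hochberg FDR of 0.05). The 14639 genes that reached 10 counts in 3 or more libraries were tested. The SE is the log2 fold change divided by the square root of its F value. Alternatives were DESeq2 1.42.0, its size factors, other count filters, transcript length offsets, the replicate number as a block, and libraries left out. Whether each pool came from other cows is not given in the sources used here, and p-values measure only the spread between these pools. The limits given for genes without counts cover counting error only, while the SE also holds the spread between these pools.

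The 10 genes and the lists were chosen with earlier results of these data known. Of each pathway list, up to 3 genes in each direction were named, taking the largest log2 fold changes among genes without overlap between groups in CPM and with a mean log2 CPM no lower than 1. Genes most alike were ranked by Pearson correlation of log2(TPM + 1) with the mean z score of the 10, at a mean of at least 5 TPM. CD83, PTGS2 and the genes named for T0 replicate 3 were added after their values were seen. Promoters were not analysed here.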

Additional observations from a re-analysis of the deposited data

How the results depend on the processing

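Over all genes, edgeR called 5 higher and 1 lower at T16. DESeq2 called 594 and 433, edgeR without a count filter called 4 lower, with at least 50 counts in 3 libraries it called 2 lower, and with T16 replicate 2 and T0 replicate 1 both left out it called 0 in each direction (2263 at an unadjusted p below 0.05). With 1 library left out it called 0 to 2 higher and 0 to 1 lower. Whether same-numbered pools belong together is not given in the sources used here. Deviations of same-numbered libraries from their group means correlated at -0.445, -0.121 and -0.00469 for replicates 1, 2 and 3. These correlations cannot tell whether such pools share cows or a collection day. With the replicate number as a block edgeR called 0 and 0 (1385 at an unadjusted p below 0.05). It then called 0 of the other target genes and gave those a median of 1.78.

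DESeq2 called 2 ligand and receptor genes, 2 adaptors and kinases and 4 other target genes, where edgeR called 0, 0 and 1. Without T16 replicate 2 and T0 replicate 1 the called target genes were 0 and the median of the adaptors and kinases was 0.75. With 1 library left out, the median was 0.31 to 0.85 for adaptors and kinases and 0.0449 to 0.35 for the other inhibitors (-0.00129 with at least 50 counts in 3 libraries), 0.39 to 1.14 for the other target genes, and 0 to 1 target genes were called. In estimated counts, which favour long transcripts, the shares of the subunits were 33.6% at T16 and 30.5% at T0 for NFKB1, 34.5% at T16 for NFKB2, 19.2% at T16 for RELA, and 10.6% at T16 and 5.26% at T0 for RELB. The cause of the other shifts was not tested. Of the 10 genes, 9 kept the sign of their log2 fold change in all 13 alternatives, and ICAM1 was positive in 3. The median of all genes moved by -0.14 without a count filter and by 0.11 without T0 replicate 1. Of all calls 83.3% were higher at T16 by edgeR, 57.8% by DESeq2 and 63.6% without a count filter. The same 10 genes were most alike with a pseudocount of 0.1 and with a minimum mean of 1 TPM. With 3 pools a group and 31 counts at the lowest, REL and ICAM1 are the least certain values. The search for NF-kB motifs in promoters was not run.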

Other observations

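T0 replicate 3 held high levels of several fast NF-kB response genes beside NFKBIA, BIRC3, ICAM1 and REL. Of 16 other target genes tested, 11 (68.8%) were highest of T0 in that library, where this was so for 32.2% of all genes tested, and of 14 other inhibitors 5 (35.7%) were. GADD45B, a stress gene, had 163, 67.0 and 84.9 TPM in T16 replicates 1, 2 and 3, against 40.6, 56.7 and 561 TPM in T0 replicates 1, 2 and 3. IRF1, an interferon pathway factor, had 43.1, 22.5 and 30.2 TPM in the T16 replicates, against 20.6, 30.4 and 267 TPM in the T0 replicates. NFKBIZ, a nuclear member of the inhibitor family, had 12.9, 7.23 and 4.11 TPM in the T16 replicates, against 6.98, 6.37 and 57.7 TPM in the T0 replicates. PTGS2, the prostaglandin synthase, had 135, 86.2 and 57.9 TPM in the T16 replicates, against 5.69, 32.4 and 125 TPM in the T0 replicates. In each of these genes T0 replicate 3 stood far above the other T0 libraries, and the pattern was noticed in the data and not tested.

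CD83, a surface protein of the immunoglobulin family, had 122, 61.4 and 84.6 TPM in the T16 replicates, against 23.0, 11.3 and 31.1 TPM in the T0 replicates, without overlap. Its log2 fold change was 2.11 (SE 0.48), and edgeR did not call it (adjusted p = 0.124), whereas DESeq2 did (adjusted p = 0.00464).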
